A study of Homo sapiens with 13 samples.

Results

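SR proteins and hnRNPs are large families of RNA-binding proteins that help decide which exons are kept when pre-mRNA is spliced. They were taken here as the coding rows of the gene tables whose symbol begins with SRSF or SFRS and a digit, or with HNRNP. The rule found 43 rows of 38369 in the tables, 20237 of them coding, with 41 distinct symbols. All of the SR rows carry the older SFRS symbols, and all 43 rows were matched to current symbols. They divide into 13 SR protein rows, 10 rows of SR-related proteins and 20 hnRNP rows. SR proteins carry an RNA recognition motif and a tail rich in arginine and serine, and when phosphorylated they bind exonic enhancers and recruit the core splicing machinery. Many hnRNPs coat nascent transcripts and oppose SR proteins at the same exons, although both families also act in export, decay and translation. Src signalling and breast cell transformation have been linked to both families, SRSF1 being a known oncoprotein in MCF10A cells.

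PolyA RNA had been sequenced from MCF10A, a human breast epithelial line that was immortalised without becoming tumorigenic and has basal features. The tamoxifen series used MCF10A-Src cells, which carry a Src kinase fused to an oestrogen receptor domain that tamoxifen switches on, sampled before treatment and after 4, 12 and 36 h. The 0 h and 12 h groups have 1 library each, and the 4 h and 36 h groups have 2. No vehicle-treated or time-matched untreated library was among those used, so tamoxifen and Src activity cannot be told apart from time in culture. The other experiment used parental MCF10A cells at 72 h after transduction with LINC00520, a long intergenic RNA (lincRNA), in 2 libraries, against 3 libraries titled untransduced and described as mock transduced. LINC00520 and transduction with a virus cannot be told apart in that comparison, and libraries of a control lincRNA were not analysed here. Each experiment rests on 1 cell line.

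Library totals ran from 12.6 to 52.3 M fragments. The LINC00520 row (linc-TBPL2-2) held 46.2 and 46 CPM (counts per 1000000 fragments after TMM scaling) in LINC00520 libraries, against 0.139, 0.2 and 0.0882 CPM in untransduced libraries, and 162 and 202 CPM at 36 h against 1.56 and 0.934 CPM at 4 h. All 10 basal epithelial markers were detected in every group. At 36 h the summed level of 5 immune markers was 67.3 to 106 CPM, against 19.6 to 22.5 CPM at 4 h, and that of 5 fibroblast markers 119 to 152 CPM, against 41 to 44.5 CPM, with COL1A2 at 0. Their part in the results below was not tested. Replicates differed far more in the time course than after transduction. The median chi-square between the libraries of a group was 14.9 times its counting-noise value at 4 h and 4.94 times at 36 h. It was 1.67 and 1.63 times that value in LINC00520 and untransduced libraries.

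Of the 43 rows, 38 passed the filter on low values in each experiment. HNRNPCL1 and both rows of SFRS17A (AKAP17A, in the region that the X and Y chromosomes share) were listed with 0 fragments in all 11 libraries. That allows up to 3 fragments per library, or 0.239 CPM before TMM scaling in the shallowest. For SFRS17A that limit bounds the row and not the gene, since a row named as antisense to AKAP17A held 12 to 160 fragments per library at the same locus and strand was not stated for the counting. The limit also bounds only the row for HNRNPCL1, whose symbol is in the label of the HNRNPC row too. Labels of 4 rows name a further gene, ECH1 for HNRNPL, BSCL2 for HNRNPUL2 and ASMT for both SFRS17A rows, so values of these rows may include it. SFRS13B (SRSF12) was tested in the time course only, and the copy of SFRS13A (SRSF10) on an unplaced chromosome 1 contig after transduction only. The main SFRS13A row held 4 to 37 fragments per library and was tested in neither experiment. Members with close copies, such as HNRNPA1 and HNRNPA1L2, SFRS2 and its retrocopy SFRS2B (SRSF8), or HNRNPC and HNRNPCL1, are uncertain to the extent that fragments were divided between the copies.

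Levels between genes are given as FPKM, the authors' value per length of transcript. HNRNPA1, which packages nascent RNA and represses exons, had the highest mean of any member in all 6 groups. It averaged 354 FPKM at 0 h, 319 FPKM at 4 h, 307 FPKM at 12 h and 708 FPKM at 36 h, and 1395 FPKM in LINC00520 libraries against 1538 FPKM in untransduced libraries. At 36 h it made up 22.5% of the summed FPKM of the family, against 10.6% at 4 h, and its rank among coding rows was 117 at 36 h and 191 at 4 h. The next members at 4 h were HNRNPC (227 and 324 FPKM), HNRNPU (267 and 271 FPKM) and HNRNPK (233 and 291 FPKM), whose libraries overlapped, so their order was not settled. The higher HNRNPC library also lay above the 4 h mean of HNRNPA1 (SD 27.2 FPKM), so first place was not settled at 4 h either. In transduced and untransduced cells alike, HNRNPC and HNRNPA2B1 followed HNRNPA1. HNRNPC averaged 496 FPKM in LINC00520 libraries and 512 FPKM in untransduced libraries, and HNRNPA2B1 458 and 442 FPKM in the same order of groups. Of the SR proteins in parental cells, SFRS2 (SRSF2) had 182 and 183 FPKM in LINC00520 libraries and 162 to 164 FPKM in untransduced libraries. SFRS5 (SRSF5) had 141 to 143 FPKM in LINC00520 libraries and 166 to 171 FPKM in untransduced libraries, so the order of the pair was reversed between the groups.

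**Figure D1:**
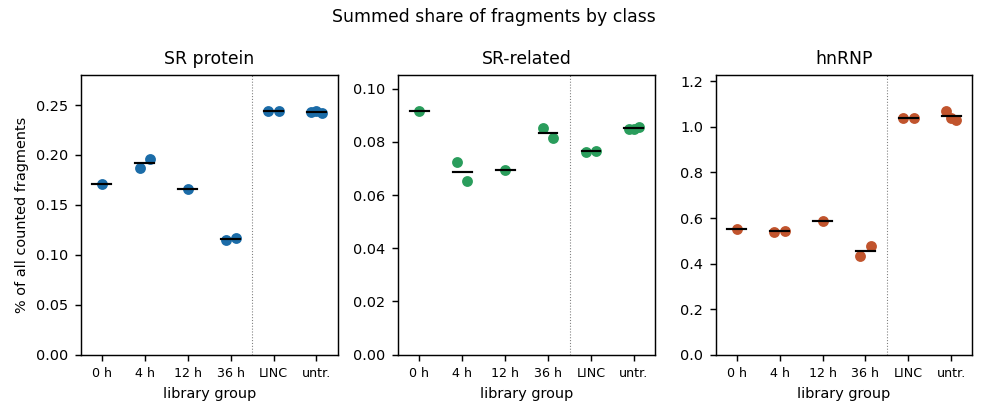
Share of all counted fragments (vertical axes, %) held by the SR protein, SR-related and hnRNP rows in each library, at 0, 4, 12 and 36 h of tamoxifen and in LINC00520 (LINC) and untransduced (untr.) libraries; points are libraries and lines are group means. SR proteins held 0.115% and 0.117% at 36 h, below both 4 h libraries at 0.187% and 0.196%.

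Late against early Src activation was addressed by 36 h over 4 h of tamoxifen, where both sides have replicates. The SR proteins SFRS6 (SRSF6, 3.14-fold lower), SFRS2, SFRS3 and SFRS2B and the hnRNP HNRNPAB fell at 36 h by at least 2-fold. The hnRNPs HNRNPA1, HNRNPA2B1 and HNRNPH3 and the SR-related SFRS18 (PNISR) rose by at least 2-fold. By edgeR's quasi-likelihood test with Benjamini-Hochberg adjustment over all 15572 rows tested, 16 of 38 members were called at 36 h, 9 higher and 7 lower, where 39.4% of all rows tested were called, 18.8% higher and 20.5% lower. The median log2 fold change was 0.06 over members and -0.04 over all rows. The share of members called was thus close to that of all rows. With library totals in place of TMM scaling the split was 5 higher and 14 lower, and the median of all rows moved to -0.29. None of the 16 called members changed direction under any of the 10 alternatives tried.

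Among 11 SR protein rows tested, 5 fell, 3 rose and 3 were not past the test, with a median log2 fold change of -0.34. SFRS6, an activator of many alternative exons that like most SR proteins limits its own mRNA through an unproductive splice form, had 73.7 and 95 CPM at 36 h, against 244 and 284 CPM at 4 h. The lower 4 h library thus lay far above the higher 36 h library. Its log2 fold change was -1.65 (SE 0.183, adjusted p = 0.000465), the largest fall of any member. SFRS2 (SC35), a mark of nuclear speckles, had 56.6 and 57.4 CPM at 36 h, against 168 and 142 CPM at 4 h (log2 fold change -1.44, SE 0.161, adjusted p = 0.000481). SFRS3 (SRSF3), the smallest SR protein and a factor in mRNA export, had 161 and 192 CPM at 36 h, against 317 and 389 CPM at 4 h, and fell by 1.00 on the log2 scale (SE 0.174, adjusted p = 0.00348). For both genes all 36 h libraries lay below all 4 h libraries. SFRS2B, the retrocopy of SFRS2, also fell, to 13 and 15.7 CPM at 36 h against 34.7 and 24 CPM at 4 h (log2 fold change -1.04, SE 0.232), a call lost without the first 36 h library. SFRS1 (SRSF1, also ASF/SF2), the founding family member, had 352 and 375 CPM at 36 h, against 516 and 606 CPM at 4 h. This smaller fall (log2 fold change -0.63, SE 0.16, adjusted p = 0.0171) was not past the test with either 36 h library left out or with limma.

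The SR proteins that rose were SFRS4 (SRSF4), SFRS11 (SRSF11) and SFRS13B. SFRS11 (p54), which interacts with the 3′ splice site factor U2AF, had 264 and 268 CPM at 36 h, against 159 and 128 CPM at 4 h (log2 fold change 0.89, SE 0.164, adjusted p = 0.00449). SFRS13B was low, with 7.78 and 8.07 CPM at 36 h, against 4.2 and 4.54 CPM at 4 h (log2 fold change 0.85, SE 0.224), a call lost with library totals and with either 36 h library left out. The rise of SFRS4 is given with its antisense row below. SFRS7 (SRSF7), the close relative of SFRS3, had 83.6 and 85.2 CPM at 36 h, against 95.9 and 100.5 CPM at 4 h (log2 fold change -0.22, SE 0.147, adjusted p = 0.273). SFRS5, known in rat liver as an insulin-induced gene, had 142 and 135 CPM at 36 h, against 118 and 109 CPM at 4 h (log2 fold change 0.28, SE 0.148, adjusted p = 0.163).

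**Figure D2:**
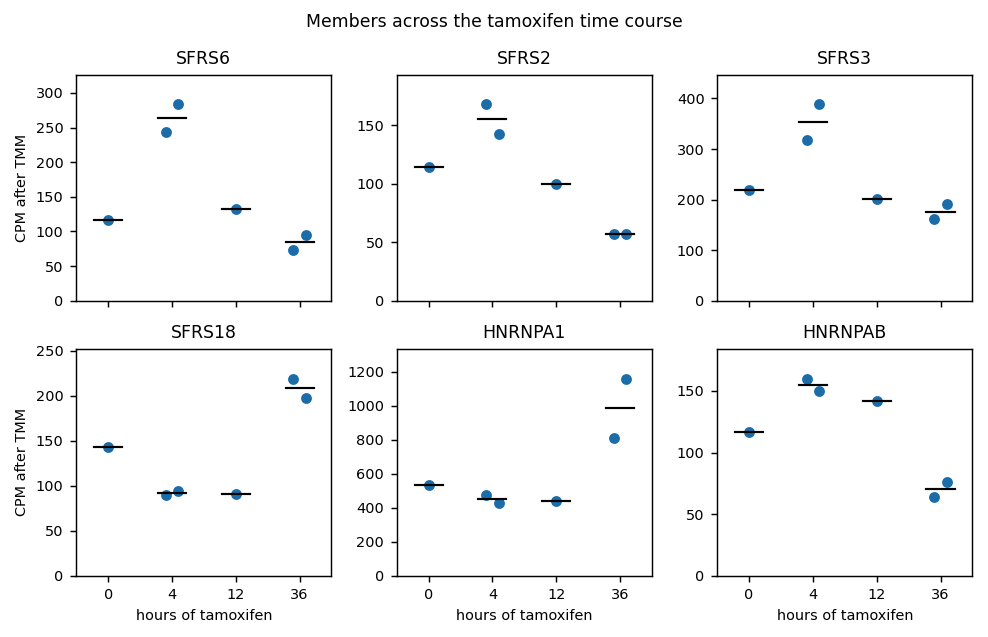
CPM after TMM scaling (vertical axes, linear from 0) against hours of tamoxifen for 6 members; points are libraries and lines are group means, with 1 library at 0 h and at 12 h. SFRS6, SFRS2 and SFRS3 were highest at 4 h and lowest at 36 h, SFRS18 and HNRNPA1 highest at 36 h, and HNRNPAB lowest at 36 h.

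SFRS6, SFRS3 and HNRNPAB, which were lower at 36 h, and SFRS18, which was higher, are shown by the reference sequence around their start sites, since members that moved together might share promoter letters. The RefSeq windows (GRCh38.p14, 250 bases before to 50 bases after the start, written in the direction of transcription) lie at chr20:43457646-43457945 on the plus strand for SRSF6, chr6:36594112-36594411 on the plus strand for SRSF3, chr5:178204283-178204582 on the plus strand for HNRNPAB and chr6:99425259-99425558 on the minus strand for PNISR. Capitals mark the motifs searched on both strands, namely the CCAAT box (CCAAT), the cyclic AMP response element (TGACGTCA), the E-box (CACGTG) and an ETS core (CCGGAAG), none of which is contained in another.
SRSF6: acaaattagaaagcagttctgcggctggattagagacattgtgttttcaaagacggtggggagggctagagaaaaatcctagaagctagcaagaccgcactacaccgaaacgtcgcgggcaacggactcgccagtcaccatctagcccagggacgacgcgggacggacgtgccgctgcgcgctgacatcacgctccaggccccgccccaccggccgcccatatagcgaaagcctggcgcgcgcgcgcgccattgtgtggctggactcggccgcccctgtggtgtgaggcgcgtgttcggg
SRSF3: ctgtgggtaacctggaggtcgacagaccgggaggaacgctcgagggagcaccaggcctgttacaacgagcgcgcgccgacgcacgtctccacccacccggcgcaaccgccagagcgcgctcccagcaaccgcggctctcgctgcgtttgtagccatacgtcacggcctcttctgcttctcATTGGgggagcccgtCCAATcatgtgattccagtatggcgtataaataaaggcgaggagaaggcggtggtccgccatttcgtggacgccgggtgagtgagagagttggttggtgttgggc
HNRNPAB: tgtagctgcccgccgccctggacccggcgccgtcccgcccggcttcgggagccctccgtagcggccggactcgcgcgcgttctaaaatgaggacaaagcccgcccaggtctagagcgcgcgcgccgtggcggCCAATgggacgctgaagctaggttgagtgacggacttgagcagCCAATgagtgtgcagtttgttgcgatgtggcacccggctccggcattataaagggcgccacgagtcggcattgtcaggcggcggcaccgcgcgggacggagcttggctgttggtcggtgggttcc
PNISR: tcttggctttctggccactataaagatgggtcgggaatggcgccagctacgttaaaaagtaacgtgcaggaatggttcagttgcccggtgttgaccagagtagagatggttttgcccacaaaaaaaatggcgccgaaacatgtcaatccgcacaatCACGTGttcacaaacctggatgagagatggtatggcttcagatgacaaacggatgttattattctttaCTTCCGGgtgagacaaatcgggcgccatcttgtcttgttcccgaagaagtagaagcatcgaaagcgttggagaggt
The SRSF3 and HNRNPAB windows each held CCAAT boxes, 1 of the SRSF3 boxes being on the minus strand, and the PNISR window held an E-box and an ETS core. The SRSF6 window held none of the 4. Of 35116 RefSeq promoters of this length, 34.6% held a CCAAT box, 7.26% the E-box and 10.3% the ETS core. The 53 promoter entries of 37 member symbols had them in 41.5%, 17% and 20.8% of cases, with a median GC content of 64% against 58.7% for all promoters. The response element, in 1.85% of all promoters, was in none of the members' entries.

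SR-related proteins, which carry arginine-serine stretches without belonging to the classical family, had 3 rises among 8 tested rows at 36 h, the other 5 rows not passing the test. SFRS18 (PNISR), a speckle protein whose role is little known, had 219 and 198 CPM at 36 h, against 89.7 and 93.7 CPM at 4 h (log2 fold change 1.19, SE 0.15, adjusted p = 0.000864). SFRS2IP (SCAF11), named as a partner of SRSF2, had 310 and 339 CPM at 36 h, against 207 and 204 CPM at 4 h (log2 fold change 0.66, SE 0.146, adjusted p = 0.00969). In both genes the 36 h libraries lay above the 4 h libraries, but the call of SFRS2IP was lost with library totals and without the second 36 h library. SFRS12IP1 (SREK1IP1) had 118 and 127 CPM at 36 h, against 82 and 89.5 CPM at 4 h (log2 fold change 0.52, SE 0.151, adjusted p = 0.0286). That call was lost without the low-value filter, with library totals and with either 36 h library left out.

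Of 19 hnRNP rows tested, 3 rose, 2 fell and 14 were not past the test. HNRNPA1 had 809.8 and 1159 CPM at 36 h, against 472 and 427 CPM at 4 h (log2 fold change 1.13, SE 0.203, adjusted p = 0.00403). HNRNPA2B1, its close relative and a reader of sequence motifs in RNA sorting, had 435 and 681 CPM at 36 h, against 316 and 233 CPM at 4 h (log2 fold change 1.02, SE 0.247, adjusted p = 0.0136). The libraries did not overlap for either gene, but within each pair they lay far apart, and the call of HNRNPA2B1 was lost with limma. HNRNPH3, which binds runs of guanine, had 40.5 and 75.2 CPM at 36 h, against 32.6 and 17.9 CPM at 4 h (log2 fold change 1.19, SE 0.353, adjusted p = 0.0295). Its call was lost with limma and with library totals. Without the second 36 h library, in which all of these genes were higher, HNRNPA2B1 and HNRNPH3 were no longer called. The number of members called fell without either 36 h library and rose without the first 4 h library. The number of all rows called moved the same way.

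HNRNPAB, which binds RNA and also acts as a transcription factor, had 64 and 76 CPM at 36 h, against 159.9 and 150.1 CPM at 4 h (log2 fold change -1.15, SE 0.16, adjusted p = 0.00134). HNRNPUL1, a nuclear scaffold protein of the DNA damage response, had 133 and 131 CPM at 36 h, against 213 and 173 CPM at 4 h (log2 fold change -0.55, SE 0.162, adjusted p = 0.0292). In both the 36 h libraries lay below the 4 h libraries, but the call of HNRNPUL1 was lost with limma and with either 36 h library left out. Several abundant hnRNPs had lower values at 36 h without passing the test. HNRNPU, a scaffold attachment factor, had 768 and 795 CPM at 36 h, against 1042 and 1070 CPM at 4 h (log2 fold change -0.43, SE 0.153, adjusted p = 0.0543). HNRNPC, which binds uridine tracts and guards against exonisation of Alu elements, had 558 and 439 CPM at 36 h, against 562 and 769 CPM at 4 h (log2 fold change -0.42, SE 0.206, adjusted p = 0.144). HNRNPK, a binder of cytosine tracts, had 622 and 652 CPM at 36 h, against 671 and 815 CPM at 4 h (log2 fold change -0.22, SE 0.166, adjusted p = 0.324). For these 3 genes the 36 h libraries lay below the 4 h libraries, and none passed the test.

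Summed over rows, SR proteins held 0.115% and 0.117% of fragments at 36 h, against 0.187% and 0.196% at 4 h. The hnRNP rows held 0.432% and 0.479% at 36 h, against 0.54% and 0.544% at 4 h. Of the FPKM summed over all rows, SR proteins made up 0.0737% and 0.0538% at 36 h, against 0.123% and 0.111% at 4 h, and hnRNPs 0.302% and 0.254% at 36 h, against 0.384% and 0.333% at 4 h. Both class shares were thus lower at 36 h in either unit, with no overlap of libraries. They are shares of library totals without TMM scaling, whose factors were 0.897 and 0.848 at 36 h, against 1.06 and 1.02 at 4 h. The summed FPKM of hnRNP rows itself was not lower, at 2163 and 2549.6 at 36 h against 2063 and 2211 at 4 h. After TMM scaling the median log2 fold change of tested hnRNPs was -0.02, so a fall of hnRNPs as a class was not shown. A library of bulk cells cannot separate fewer cells holding a transcript from less of it per cell.

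**Figure D3:**
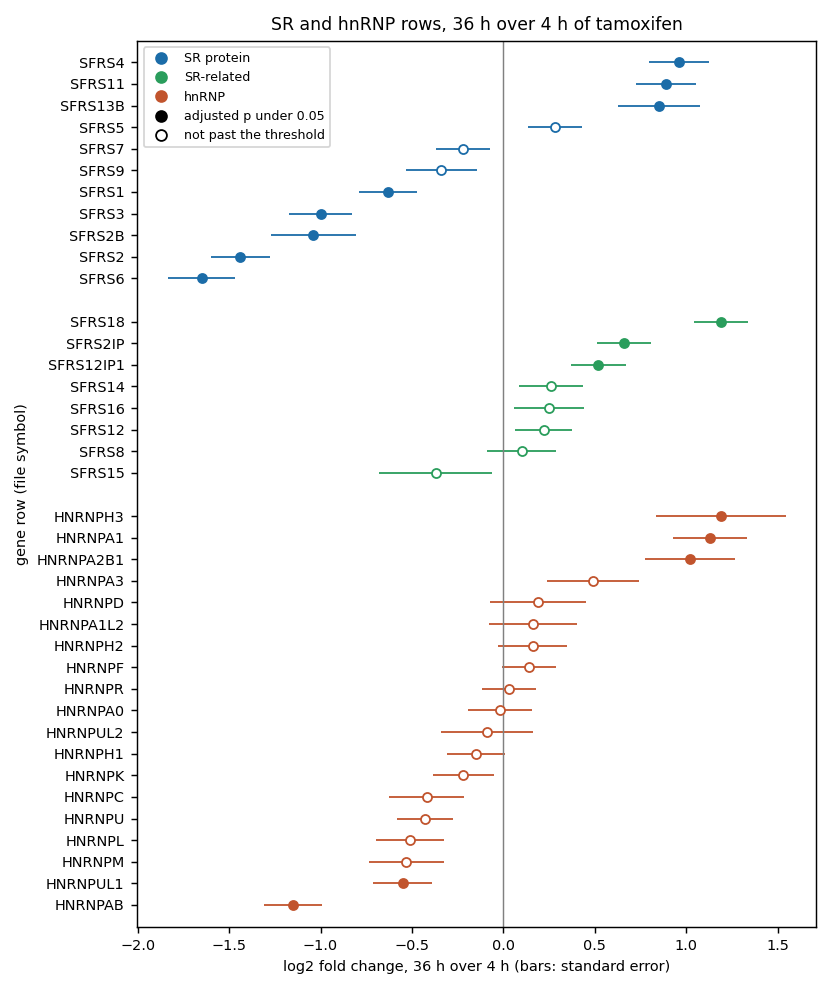
Log2 fold change of 36 h over 4 h (horizontal axis, with standard error bars) for each of 38 tested rows, grouped by class; filled points had an edgeR adjusted p under 0.05. SR proteins spread from -1.65 for SFRS6 to 0.96 for SFRS4, SR-related rows that passed lie to the right, and 14 of the 19 hnRNPs are open points.

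Across the family, 23 of the 43 rows share a locus with a lincRNA row. For 20 of them that row is named as antisense to the member itself. Whether counting used strand is not stated, so how well sense and antisense fragments were separated is not known. In SFRS13A nearly all fragments of the locus were given to the antisense row, 98% to 98.1% in LINC00520 libraries, 98.3% to 98.6% in untransduced libraries and 98.3% to 99.5% in the time course. SRSF10, an SR protein that acts as a repressor when dephosphorylated, therefore had no usable level of its own in these tables. With both rows summed the locus had 74.7 and 78.3 CPM at 36 h, against 68.8 and 66.8 CPM at 4 h (log2 fold change 0.17, SE 0.149, adjusted p = 0.389). Those sums come almost wholly from the antisense row and do not give the level of SRSF10.

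At several loci the antisense row took a larger share in MCF10A-Src cells than in parental cells, and at SFRS14 a smaller one (0.41% to 1.16% against 2.85% to 3.54%). For SFRS4, a large SR protein found in speckles, the antisense row held 55.7% to 74.5% of locus fragments in the time course and 10.8% to 12.4% after transduction or mock transduction. The HNRNPM row, a factor that promotes mesenchymal splicing in breast cells, had 32.6% to 55.4% against 2.44% to 3.92%. HNRNPD (AUF1), which promotes decay of AU-rich mRNA, had 78.1% to 83.7% against 42.5% to 44.7%. Levels of these rows were therefore not compared between the experiments.

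The shares also moved within the time course. For SFRS4 the antisense row held 57.8% and 55.7% at 36 h, against 74.5% and 70.4% at 4 h. Counted alone, SFRS4 had 97.6 and 88.4 CPM at 36 h, against 51.4 and 44.5 CPM at 4 h, and rose (log2 fold change 0.96, SE 0.163, adjusted p = 0.00317). Summed with the antisense row, the locus had 232 and 199.6 CPM at 36 h, against 202 and 150 CPM at 4 h, and was not past the test (log2 fold change 0.29, SE 0.186, adjusted p = 0.245). Of the 9 rises, only SFRS4, SFRS2IP and SFRS18 had fragments in an antisense row of their own. Among these, the call of SFRS4 alone rested on how fragments of the locus were divided. The other rises could not be checked in this way. For HNRNPM the antisense share was higher at 36 h, 55.4% and 50.7% against 38.7% and 39.7% at 4 h, and its log2 fold change was -0.53 alone and -0.15 summed, neither past the test. SFRS18 was called either way, with a log2 fold change of 1.25 (SE 0.145, adjusted p = 0.000566) when summed. The sums were tried after the data had been seen.

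**Figure D4:**
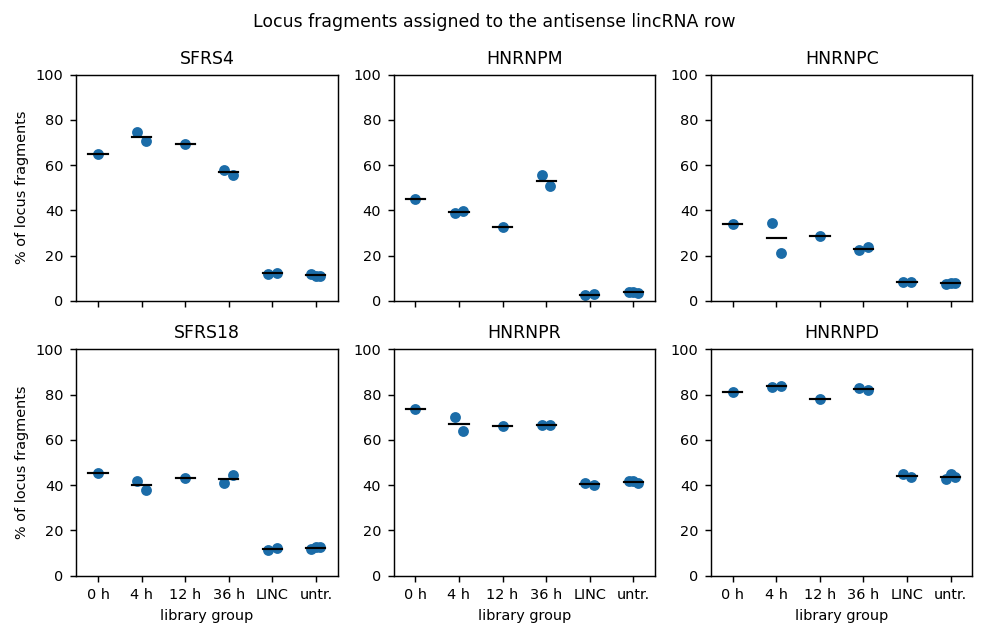
Percent of the fragments at 6 loci that the tables assign to the antisense lincRNA row (vertical axes, 0 to 100%), by library, at 0, 4, 12 and 36 h and in LINC00520 (LINC) and untransduced (untr.) libraries; lines are group means. Time-course libraries lie above the parental libraries at all 6 loci, and the SFRS4 share is lower at 36 h than at 4 h.

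Against the single 0 h library, SFRS6 was the only member called at 4 h and SFRS2 the firmest call at 36 h. These comparisons share the 0 h library with each other and the 4 h or 36 h libraries with the comparison above, and the 0 h and 12 h libraries were assumed to vary like the replicated groups. At 4 h, edgeR called 1 of 38 members higher and 0 lower, where 6.24% of all rows were called, 3.15% higher and 3.09% lower. SFRS6 had 117 CPM at 0 h, 244 and 284 CPM at 4 h and 132 CPM at 12 h, with a log2 fold change of 1.18 for 4 h over 0 h (SE 0.229, adjusted p = 0.0261). The same gene was thus high at 4 h and at its lowest at 36 h. That call was kept by 7 of 8 alternatives and lost with limma on log2(FPKM + 1), by which no member was called. SFRS3 had 317 and 389 CPM at 4 h, against 220 CPM at 0 h (log2 fold change 0.68, SE 0.216, adjusted p = 0.104). At an unadjusted p under 0.05 by edgeR, 8 members (21.1%) passed, 3 higher and 5 lower, where 24% of all rows did. With either 4 h library left out, more members were called after adjustment, and so were more of all rows.

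At 12 h, 0 of 38 members were called by edgeR, DESeq2 or limma, where 4.24% of all rows were called by edgeR, 3.04% higher and 1.2% lower. By edgeR 3 members (7.89%) passed at an unadjusted p under 0.05, 1 higher and 2 lower, where 19% of all rows did. All 8 SR-related rows had values below 0 h, with log2 fold changes from -0.09 to -0.66, where 8112 of 15572 rows tested did. SFRS18 had the lowest, at 90.3 CPM at 12 h against 143 CPM at 0 h (log2 fold change -0.66, SE 0.21, adjusted p = 0.141). HNRNPM had the highest of all members, at 191 CPM at 12 h against 114 CPM at 0 h (log2 fold change 0.74, SE 0.284, adjusted p = 0.215). Summed with its antisense row, HNRNPM had a log2 fold change of 0.44 (SE 0.268), the antisense share being 45.2% at 0 h and 32.6% at 12 h. In simulated data 3% of changes of 1.5-fold and 93% of changes of 4-fold were recovered in this comparison, so small differences were not detectable.

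At 36 h, 3 of 38 members were higher than at 0 h and 2 lower, where 19.4% of all rows were called, 9.99% higher and 9.36% lower. SFRS2 had 56.6 and 57.4 CPM at 36 h, against 114 CPM at 0 h. It fell by 1.00 on the log2 scale (SE 0.187, adjusted p = 0.00894) and was called under all 8 alternatives. HNRNPAB had a log2 fold change of -0.74 (SE 0.189), HNRNPA1 of 0.89 (SE 0.256), SFRS12IP1 of 0.67 (SE 0.189) and SFRS13B of 0.99 (SE 0.27), with adjusted p between 0.0305 and 0.0458. Each of these 4 calls was lost when the second 36 h library was left out. Leaving out the first lost 3 of the 4, HNRNPA1 being the exception. Fewer of all rows were also called in both cases. With library totals in place of TMM scaling the split was 0 higher and 10 lower, and the median of all rows moved to -0.43 from -0.08. SFRS6, at 73.7 and 95 CPM at 36 h against 117 CPM at 0 h, was not past the test (log2 fold change -0.47, SE 0.215, adjusted p = 0.165).

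In parental cells transduced with LINC00520, the changes of members were small. HNRNPAB rose 1.39-fold and SFRS18 fell to 0.808 of its untransduced level, and no member changed 2-fold. By edgeR 21 of 38 members were called, 12 higher and 9 lower, where 50% of all 12790 rows tested were called. The 7 hnRNPs that rose were HNRNPAB, HNRNPR, HNRNPF, HNRNPM, HNRNPU, HNRNPA0 and HNRNPK, and HNRNPA1 and HNRNPH1 fell. Among 11 SR proteins SFRS1, SFRS2, SFRS3 and SFRS7 rose and SFRS5 and SFRS11 fell, while 5 of 8 SR-related rows fell and SFRS15 (SCAF4) alone rose, a call kept by 3 of 11 alternatives. The median log2 fold change was 0.04 over members and 0.00 over all rows. Spread between these replicates was low, with a coefficient of variation of 0.0249 against 0.162 in the time course.

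HNRNPAB had 359.7 and 351 CPM in LINC00520 libraries, against 272, 246 and 253 CPM in untransduced libraries (log2 fold change 0.47, SE 0.0345, adjusted p = 6.62e-11). HNRNPR, related to the mRNA-stabilising protein SYNCRIP, had 169 and 165 CPM in LINC00520 libraries, against 141, 136 and 139 CPM in untransduced libraries (log2 fold change 0.27, SE 0.0317, adjusted p = 1.79e-07). HNRNPF, a binder of guanine runs, had 407 and 422 CPM in LINC00520 libraries, against 358, 343 and 350.1 CPM in untransduced libraries (log2 fold change 0.24, SE 0.0294, adjusted p = 2.98e-07). In each of the 3 both LINC00520 libraries lay above all untransduced libraries. SFRS3 had 420.4 and 417 CPM in LINC00520 libraries, against 371, 369.6 and 361 CPM in untransduced libraries, and SFRS7 203 and 209 CPM against 184, 177 and 179 CPM in the same order of groups. Both had a log2 fold change of 0.19, as did HNRNPM, with 343 and 346 CPM in LINC00520 libraries against 310.3, 298 and 299 CPM in untransduced libraries. For HNRNPU, HNRNPK, SFRS2 and SFRS1 the log2 fold changes were 0.16, 0.11, 0.15 and 0.12, each called under all 11 alternatives.

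SFRS18 had 170 and 167 CPM in LINC00520 libraries, against 209, 205 and 213 CPM in untransduced libraries (log2 fold change -0.31, SE 0.0307, adjusted p = 9.58e-09). SFRS5 had 241 and 238 CPM in LINC00520 libraries, against 293, 279 and 289 CPM in untransduced libraries (log2 fold change -0.26, SE 0.0301, adjusted p = 1.11e-07). The groups were separate for both. SFRS16 (CLASRP), a partner of the CLK kinases, SFRS14 (SUGP2) and SFRS12 (SREK1), a regulator of splice site choice, had log2 fold changes of -0.20, -0.19 and -0.17. HNRNPA1 had 2182 and 2188 CPM in LINC00520 libraries, against 2468, 2336 and 2363 CPM in untransduced libraries (log2 fold change -0.13, SE 0.0287, adjusted p = 0.000642). HNRNPC, at 1047 and 1033 CPM in LINC00520 libraries against 1100.1, 1056 and 1051 CPM in untransduced libraries, and HNRNPA2B1, at 1701 and 1704 CPM against 1717, 1640.1 and 1569 CPM, were not past the test (log2 fold changes -0.04 and 0.05, SE 0.0283 and 0.0315). Neither was SFRS6, at 264 and 257 CPM in LINC00520 libraries against 253, 247 and 255 CPM in untransduced libraries (log2 fold change 0.05, SE 0.0293, adjusted p = 0.16). With its antisense row summed, HNRNPD became a further rise (log2 fold change 0.10, SE 0.0295, adjusted p = 0.00764).

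**Figure D5:**
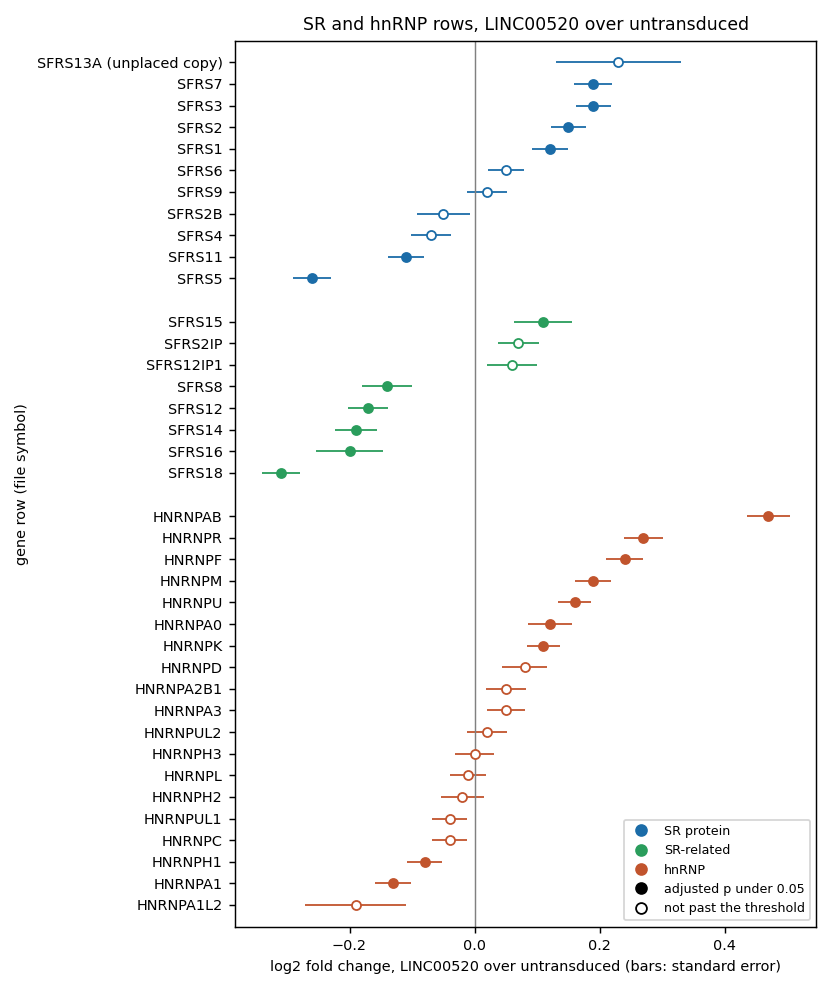
Log2 fold change of LINC00520 over untransduced libraries (horizontal axis, with standard error bars) for each of 38 tested rows, grouped by class; filled points had an edgeR adjusted p under 0.05. All values lie between -0.31 for SFRS18 and 0.47 for HNRNPAB, and 5 of the 6 filled SR-related points lie left of 0.

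Set beside the time course, which shares no library with this experiment, 7 members were called in both. They were 33.3% of the 21 called with LINC00520 and 43.8% of the 16 called at 36 h over 4 h. Of rows of any kind, 2842 were called in both, of 6396 called with LINC00520 and 6130 at 36 h over 4 h. Members thus overlapped no more than rows in general. All 7 members had opposite signs in the 2 comparisons, and of the 2842 rows 62.8% did. SFRS1, SFRS2, SFRS3 and HNRNPAB were higher with LINC00520 and lower at 36 h, and SFRS11, SFRS18 and HNRNPA1 were lower with LINC00520 and higher at 36 h. The changes with LINC00520 were much smaller, for example 0.15 against -1.44 on the log2 scale for SFRS2. This is a description of the 2 sets of calls, with no test.

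The SRPK kinases load phosphate on the arginine-serine tail in the cytoplasm, the CLK kinases add more in the nucleus, and transportins carry the proteins in. Of 12 tested genes of phosphorylation, dephosphorylation and import, 6 were higher at 36 h than at 4 h and 1 lower, beside 18.8% higher and 20.5% lower of all rows; no list was tested as a set. CLK1, CLK4, SRPK1 and CLK3 had log2 fold changes of 1.37 (SE 0.164), 1.18 (SE 0.163), 1.08 (SE 0.151) and 0.97 (SE 0.16), and AKT2 of -0.93 (SE 0.15). CLK1, SRPK1 and CLK3 were also above 0 h, by 1.31, 1.03 and 1.02. With LINC00520, 4 of 13 were higher and 2 lower, beside 25.2% higher and 24.8% lower of all rows. CLK1 and CLK4 had log2 fold changes of -0.31 and -0.24 there, and SRPK1 of 0.15.

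Among 24 tested hnRNPs and SR-like factors with other symbols, 2 were higher and 6 lower at 36 h than at 4 h. KHSRP, a decay and splicing factor, PTBP1, a repressor that binds pyrimidine tracts, and SFPQ had log2 fold changes of -1.38 (SE 0.205), -0.88 (SE 0.164) and -0.78 (SE 0.147), and ROD1 (PTBP3) of 0.75 (SE 0.153). With LINC00520 11 were higher and 1 lower, led by SYNCRIP at 0.29 (SE 0.0277). Of 18 tested cell-type regulators, 6 were higher and 4 lower at 36 h. The RNA-binding proteins KHDRBS3 (SLM2) and QKI had log2 fold changes of 2.04 (SE 0.198) and 1.00 (SE 0.149), and RBM38 of -1.67 (SE 0.23). The 2 epithelial splicing regulators went apart, ESRP2 lower at -1.20 (SE 0.166) and ESRP1 higher at 0.82 (SE 0.153). With LINC00520 3 of 18 were higher and 6 lower, led by RBM39 at -0.24 and ESRP1 at -0.23. Beside the counts of both lists, 18.8% of all rows were higher and 20.5% lower at 36 h, and 25.2% and 24.8% with LINC00520.

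The core machinery is given by its counts. Of 24 tested genes of U1, U2 and 3′ splice site recognition, 1 was higher and 7 lower than at 4 h, with SNRPB, a core Sm protein, at -1.08 (SE 0.178) and SF3B1, the branch site protein, at 0.89 (SE 0.156). Of 25 of the tri-snRNP and catalytic steps, 1 was higher and 5 lower, led by PRPF19 at -1.63 (SE 0.18). Of 15 exon junction and nonsense-mediated decay genes, 2 were higher and 3 lower, with EIF4A3 at -1.20 (SE 0.198) and CASC3 at -1.22 (SE 0.193). With LINC00520 these lists had 9 higher and 3 lower of 23, 11 and 3 of 25, and 11 and 1 of 16, with MAGOHB at 0.40 (SE 0.0666) and SNRPA1 at 0.34 (SE 0.0409). These counts stand beside 18.8% higher and 20.5% lower of all rows at 36 h, and 25.2% and 24.8% with LINC00520.

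Many members make a splice form that is destroyed by nonsense-mediated decay, which caps their protein. In the GENCODE v29 annotation 29 of 41 member symbols (70.7%) have at least 1 transcript of that kind, against 35.7% of 19936 protein-coding genes, and 28 (68.3%) have a transcript with a retained intron, against 46.2%. SFRS7 has 6 such decay transcripts, SFRS1 has 3, SFRS3 and SFRS2 have 2 each and SFRS6 has 1. The fragments counted here are summed over the forms of a gene, so a change in a row does not say which form changed.

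The authors' own calls, at a q-value under 0.05 in the authors' deposited table, were 10 members higher and 5 lower of 39 for 36 h over 4 h, where 28.1% of the rows they tested were called. The authors' deposited table calls HNRNPA3 higher, which edgeR did not, and does not call SFRS1 or HNRNPUL1. In the authors' deposited table for LINC00520 the calls were HNRNPAB, with a log2 fold change of 0.47, and SFRS18, with -0.32, where 12.9% of rows were called. At 36 h over 0 h the authors' deposited table calls HNRNPA1, SFRS12IP1, SFRS13B and HNRNPF (q = 0.0347) higher and SFRS2 lower, where 16.3% of rows were called, and does not call HNRNPAB (q = 0.0958). At 4 h over 0 h the authors' deposited table calls SFRS6 and SFRS3 higher, where 8.97% of rows were called.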

How the data were processed

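Per the submitters' processing notes, reads were called with CASAVA 1.4, aligned to hg19 with TopHat and quantified with Cuffdiff; their other versions, the gene models and whether counting used strand are not given in the sources used here. The authors' deposited tables hold an estimated count of fragments and FPKM per row and library. Per the file headers, their tables of calls hold p-values and q-values beside a log2 fold change. The deposited log2 column of the time-course calls was treated as a score, since the authors' values there were too large for that scale, and only its sign was used.

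Of 13 samples, 11 were matched to libraries by name; 7 libraries matching no label were not used. Replicate numbers are names only, and nothing says that replicates were separate cultures, so p-values measure the spread between libraries. Estimated counts were rounded. The filter asked for 1 FPKM in any time-course library, or in 2 libraries of the transduction experiment, and for the OK status of Cuffdiff throughout. The rows left were tested with edgeR 4.0.16 (TMM, quasi-likelihood, Benjamini-Hochberg, threshold 0.05, R 4.3.3). That gave 12790 and 15572 rows. All 6 time-course libraries entered 1 fit. Residual degrees of freedom were 3 and 2. A standard error is the size of the log2 fold change over the root of F. The script was tested on simulated data: 96% of 1.5-fold changes were recovered with LINC00520 and 9% for 36 h over 4 h, and 100% and 97% of 4-fold changes. Same-numbered libraries did not deviate together (correlations -0.109 and 0.0329). Alternatives used DESeq2 1.42.0, limma 3.58.1 on log2(FPKM + 1), no filter, library totals, a replicate block and each replicate left out.

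The members and lists were chosen with earlier results of these data known. Values are given per comparison for up to 5 rises and 5 falls with the largest change, for 12 well-known members and for the highest by FPKM, and from other lists for up to 4 called genes with the smallest p. Loci in the tables are hg19; promoters are RefSeq GRCh38.p14 and transcript types GENCODE v29 (GRCh38), and no position was converted. Counting intervals and floors cover counting error only.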

Additional observations from a re-analysis of the deposited data

How the results depend on the processing

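With LINC00520 over untransduced libraries the counts of members higher and lower stayed within 1.5 times the main counts under every alternative, from 10 to 15 and from 7 to 10 with each library left out. Of the 21 called members 16 were called under all 11 alternatives. For 36 h over 4 h, 7 of 16 were called under all 10 (SFRS2, SFRS3, SFRS6, SFRS11, SFRS18, HNRNPA1 and HNRNPAB), and no called member changed direction in any comparison. There 11 were lower without the filter, and 5 higher and 14 lower with library totals. The numbers of members and of all rows called both fell without either 36 h library and both rose without either 4 h library. For 36 h over 0 h, library totals gave 0 higher and 10 lower, limma 0 and 1, and the replicate block 0 higher and 2 lower. Fewer members and fewer of all rows were called there with either 36 h library left out. For 4 h over 0 h, no filter gave 2 higher and 2 lower, limma 0 higher, summing antisense rows 1 lower (SFRS18), and leaving out each 4 h library 1 to 3 higher and 2 to 9 lower. No member was called at 12 h over 0 h by edgeR, DESeq2, limma or any other alternative. By edgeR 3 passed at an unadjusted p under 0.05, where 19% of all rows did. With the replicate block the calls of HNRNPA1, SFRS12IP1 and SFRS13B at 36 h over 0 h and of SFRS11, SFRS15 and HNRNPH1 with LINC00520 were lost, and HNRNPA1L2 became a further fall with LINC00520; the numbers do not pair the libraries, and the cause was not tested. Depth limits the low rows: the main SFRS13A row, with 4 to 37 fragments per library, was too low to test.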
